A study of Mus musculus with 4 samples.

Results

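The data describe 10 genes of the p53 pathway in mouse articular cartilage, out of 24532 genes in the deposited table. These were Trp53, Mdm2, Mdm4, Cdkn1a, Cdkn2a, Ccng1, Bbc3, Bax, Gdf15 and Phlda3, each matched by its gene symbol in all 4 libraries. They were chosen by name for their place in the pathway, and Mdm4 was also selected on its measured fall in young injured cartilage, so that this fall is a description. All 10 genes were above 0 in every library, and 18181 genes of the table were above 0 in at least 1 library.

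Cartilage came from wild-type male C57BL/6 mice in 4 groups, sham and injured at a young and at an adult age, with 1 RNA-seq library each. Young mice were 3 weeks old, and adult mice were 10 weeks old by the methods of the study but 12 or 14 weeks old by the sample labels. The injury was a full-thickness needle wound in the groove of the patella, for which the labels name DMM surgery, a destabilization of the meniscus. Tissue was taken at day 3, except that the adult sham library is labelled as days 3 to 14. Each library was a pool of 5 uninjured or 10 injured mice. No difference between libraries therefore has a replicate check, and no p-value or standard deviation is given.

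Values are FPKM, fragment numbers divided by transcript length and by library depth, so that levels can be set side by side between genes. Differences are log2 ratios of FPKM + 1, which understate the differences of low genes, and a gene was called at 2-fold or more. Injured against sham cartilage is called the young pair and the adult pair, adult against young cartilage the sham pair and the injured pair. The young sham library enters both the young pair and the sham pair, and the adult sham library both the adult pair and the sham pair. Where 4 levels stand in a row, their order is young sham, young injured, adult sham, adult injured.

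The libraries differed in general level and in cell types. Over 10891 genes of at least 1 FPKM in each library, the median log2 ratio was −0.04 in the young, 0.23 in the adult, −0.30 in the sham and −0.07 in the injured pair. Median-of-ratios scaling, which sets most genes level, brought these medians to −0.05, −0.06, 0.07 and 0.03. The 9 chondrocyte markers found in the table were above 1 FPKM in each library, so the labelled cell type was present. Their sums were 16132, 13156, 14623 and 12414 FPKM, but the single markers differed between the ages, with 5 of 9 called lower and 1 higher in the sham pair (median −1.56) and 4 lower and 2 higher in the injured pair (median −0.87). Col2a1, the main collagen of cartilage, was at 9349, 7903, 3173 and 3750 FPKM, and Matn3, a matrix gene of young cartilage, at 392, 356, 2.30 and 1.48 FPKM, whereas Comp was higher in adults. Summed FPKM of 12 macrophage markers were 196, 1937, 328 and 1671, those of 10 osteoblast markers 1023, 3264, 8314 and 10513 (626, 926, 5591 and 5559 without Spp1), and those of 8 fibroblast markers 2385, 5052, 2396 and 8119. Sums were 637, 614.5, 1539 and 438 FPKM for 10 skeletal muscle markers, 9683, 18450, 6957 and 3032 for 9 erythroid markers, 1232, 2511, 1623 and 1966 for 10 neutrophil markers, and 19.8, 93.0, 23.3 and 77.3 for 8 endothelial markers. None of these markers was at 0 in any library, and the part of these cells in the values of the 10 genes was not tested. In bulk tissue, fewer cells of a type and less RNA per cell cannot be told apart.

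The p53 protein, encoded by Trp53, is a transcription factor that is kept scarce in unstressed cells. Mdm2 is a ubiquitin ligase that marks p53 for degradation, and its relative Mdm4 binds p53 and blocks its activity as a transcription factor. After DNA damage or other stress p53 is stabilized, mainly at the protein level, and raises the transcription of its targets, Mdm2 among them. The targets arrest the cell cycle, as Cdkn1a does by inhibiting cyclin-dependent kinases (CDKs), or promote apoptosis, as Bax and Bbc3 do. In cartilage, CDK inhibitors also accompany the exit of chondrocytes from the cell cycle as they mature.

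To show the sequence that p53 can recognise close to these genes, the windows from 250 bases before to 50 bases after each start in RefSeq (GRCm38.p6, the assembly of mm10) were searched for the 10-base p53 consensus decamer, which is its own reverse complement. RefSeq held 16 such windows for the 10 genes, and 5 windows (31.2%) of 5 genes held the decamer, beside 8.36% of all 32851 windows. The matches are printed 5′ to 3′ on the strand of the gene, with the decamer in capitals, for the gene of p53 itself, the feedback regulator Mdm2 and the targets Cdkn1a, Ccng1 and Bax.

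Cdkn1a, chr17:29090891-29090952 (+): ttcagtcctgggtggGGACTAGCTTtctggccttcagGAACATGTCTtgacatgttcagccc
Mdm2, chr10:117710920-117710959 (−): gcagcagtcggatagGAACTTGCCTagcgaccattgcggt
Trp53, chr11:69580269-69580308 (+): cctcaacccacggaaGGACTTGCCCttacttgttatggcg
Ccng1, chr11:40755447-40755486 (−): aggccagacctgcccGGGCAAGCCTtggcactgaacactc
Bax, chr7:45467075-45467114 (−): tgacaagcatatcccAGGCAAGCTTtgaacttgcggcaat

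The decamers began 73 and 51 bases before the upstream start of Cdkn1a, which was the only one of the 10 genes with a pair of decamers at most 13 bases apart. Such a pair occurred in 0.0731% of all windows. Only exact matches were counted. The 10 bases right after the second Cdkn1a decamer differ from the consensus only at their first base, and are therefore not marked. The single decamers lay 186 bases before the start of Mdm2, 75 before that of Trp53, 185 before that of Ccng1 and 201 before that of Bax. The window of the other Cdkn1a start, and all windows of Mdm4, Cdkn2a, Bbc3, Gdf15 and Phlda3, held no match, which says only that these letters are not there. Of 40 other p53 target genes, 29 had a window, and 8 of the 29 (27.6%) held the decamer, beside 9.55% of all genes with a window. A match describes the sequence and does not show that p53 was bound.

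**Figure D1:**
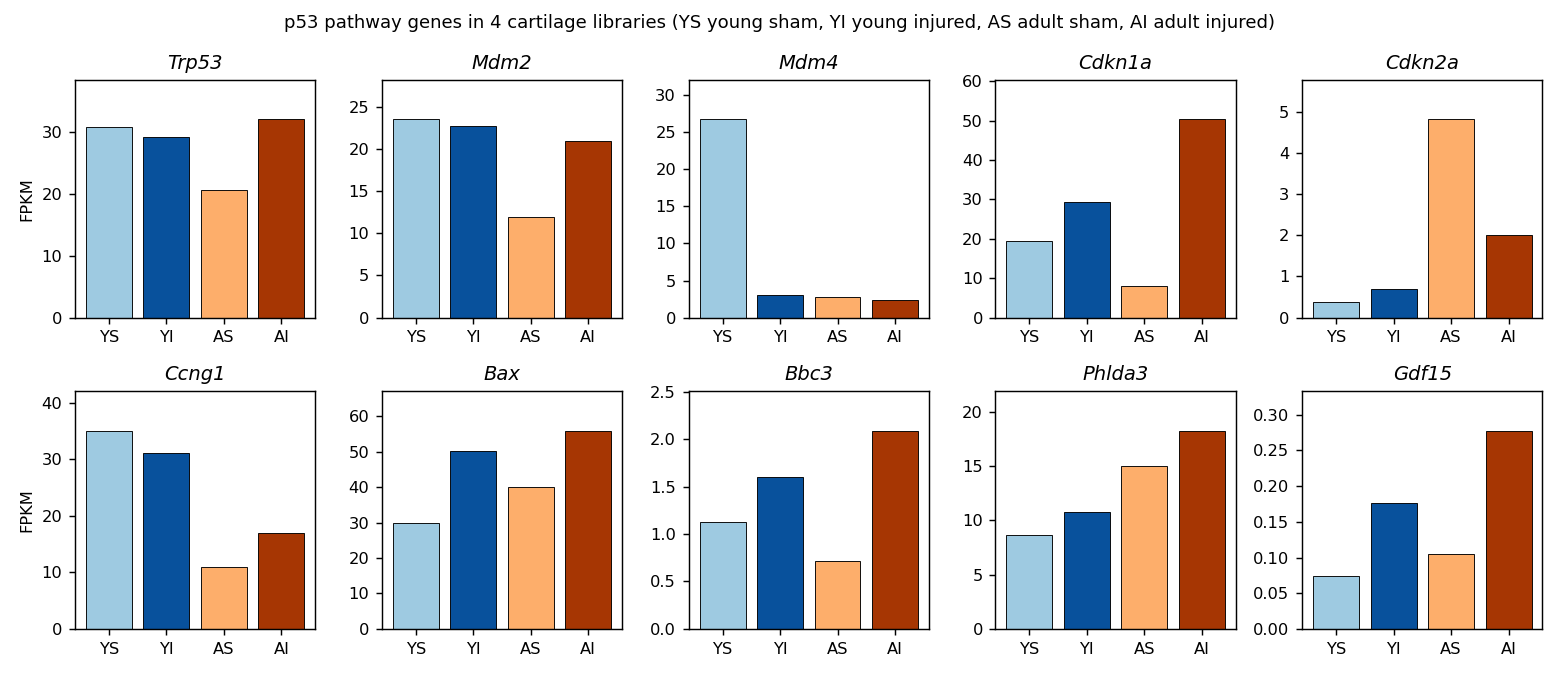
FPKM (vertical axis, from 0, scaled for each gene) of the 10 p53 pathway genes in young (Y) and adult (A) cartilage, sham (S) and injured (I), 1 bar per library and no error bars. Mdm4 stood at 26.7 FPKM in young sham and at 2.39 to 3.02 FPKM elsewhere, Cdkn1a was highest in adult injured and Cdkn2a in adult sham cartilage.

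In the young pair 1 of the 10 genes was called, Mdm4, which was lower after injury and had been selected on that value. Of all genes tested, 4.57% were called higher and 1.27% lower in this pair. The median log2 ratio of the 10 genes was 0.21, beside 0.00 over all genes tested. In the adult pair 1 gene, Cdkn1a, was called higher after injury and none lower, where 6.90% of all genes were higher and 1.46% lower. Cdkn2a, at −0.95, was called lower in this pair with a pseudocount of 0.1 FPKM (−1.22), with median of ratios (−1.23) and with quantiles (−1.30). It was also past 2-fold as TPM (−1.01), where the added 1 weighs less, as 4.82 FPKM in adult sham cartilage were 9.58 TPM. Here the median of the 10 genes was 0.52, beside 0.14 over all genes, and after median-of-ratios scaling it was 0.22, beside 0.00.

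In the sham pair 3 genes were called lower in the adult library, Mdm4, Ccng1 and Cdkn1a, and 1 higher, Cdkn2a. The background of this pair was 10.6% lower and 2.66% higher. Median-of-ratios scaling left 2 genes lower, Mdm4 and Ccng1, and made 2 higher, Cdkn2a and Phlda3, where 5.13% of all genes were lower and 5.86% higher. In the injured pair none of the 10 genes was called, with a background of 1.80% higher and 3.09% lower. The direction of the background also depended on the scaling. Of all called genes, 82.5% were higher in the adult pair, and 60.3% after median-of-ratios scaling. The same share was 20.0% and 53.3% in the sham pair, and 36.9% in the injured pair, where rescaling to equal sums (TPM) gave 50.2%.

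**Figure D2:**
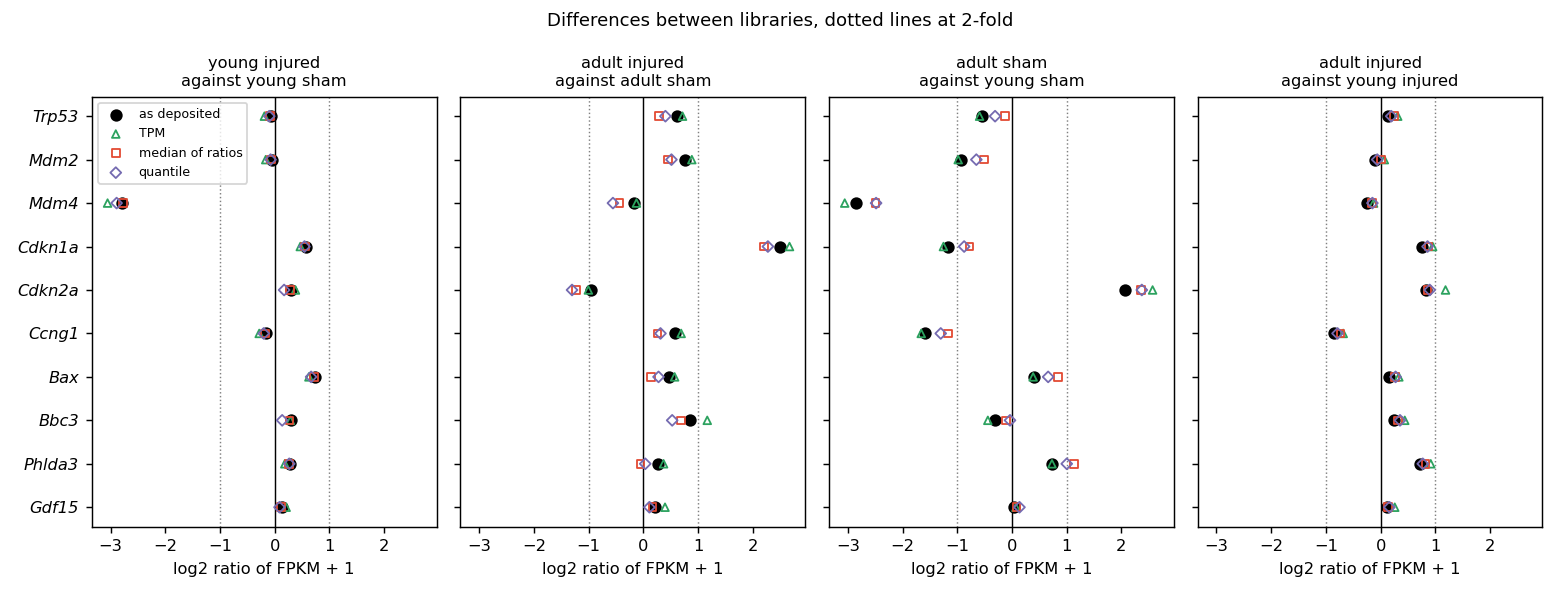
Log2 ratio of FPKM + 1 (horizontal axis) of each gene in 4 comparisons, as deposited (black) and after 3 rescalings of the libraries (open symbols), with dotted lines at 2-fold. The falls of Mdm4 from the young sham level, the higher Cdkn1a after injury in adults and the higher Cdkn2a of adult sham cartilage lay beyond the dotted lines under every rescaling shown.

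Trp53 (Entrez Gene 22059, chromosome 11, 69580348 to 69591873 on GRCm38.p6, as for all positions here) was at 30.7 FPKM in young sham cartilage, at 29.1 after injury at that age, and at 20.7 and 32.0 FPKM in sham and injured adults. The adult sham library was the low one, and the other libraries lay within a narrow range. The log2 ratio was −0.07 in the young pair and 0.61 in the adult pair, and −0.55 in the sham pair, which became −0.13 after median-of-ratios scaling. About 10.1% of the 31-base words of its transcripts also occur in other genes, mainly the pseudogene Trp53-ps.

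Mdm2 (Entrez Gene 17246, chromosome 10, 117688875 to 117710758) had levels of 23.5 FPKM in sham and 22.7 in injured cartilage of young mice, and of 11.9 and 20.9 FPKM in adults. As for Trp53, adult sham cartilage was lowest. Its log2 ratio was −0.05 in the young, 0.77 in the adult and −0.92 in the sham pair, all below 2-fold. Within a library, Mdm2 was at 0.765, 0.777, 0.576 and 0.655 times the level of Trp53, a ratio that rescaling a whole library by 1 factor does not touch, unlike quantile normalization.

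Mdm4 (Entrez Gene 17248, chromosome 1, 132986105 to 133030587) had another pattern than its relative. Young cartilage had 26.7 FPKM in the sham and 3.02 in the injured library, and adult cartilage 2.84 and 2.39 FPKM. As deposited, the young sham level was 8.86 times the next one, and the other 3 libraries differed from each other by no more than 1.26 times. After median-of-ratios scaling those 3 stood at 2.72, 3.51 and 2.34, and with quantiles at 2.61, 3.78 and 2.25. Adult sham then lay above young injured cartilage. The log2 ratio of −2.79 in the young pair and that of −2.85 in the sham pair rest on the same young sham library. In the pairs without that library the values were −0.18 for the adult and −0.24 for the injured pair. The adult value was −0.43 after median-of-ratios scaling and −0.56 with quantiles. Mdm4 was at 1.14 times the level of Mdm2 in young sham cartilage and at 0.114 to 0.239 times in the other libraries.

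The table lists 6 transcripts for Mdm4, and those matched to GENCODE M21 ran from 1914 to 7105 bases, the widest range of the 10 genes. FPKM are divided by length, so the value of a gene depends on the transcript its fragments are assigned to, and values per transcript were not analysed here. Of its 31-base words, 13.6% also occur in other genes, mainly the pseudogene Mdm4-ps. The pseudogene Gm29257 and, on the opposite strand, the long noncoding RNA gene Gm41953 overlap its position. The part of these properties in the young sham value was not tested.

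Cdkn1a (Entrez Gene 12575, chromosome 17, 29090979 to 29100722) encodes p21, the CDK inhibitor through which p53 arrests the cell cycle. In young mice it was at 19.4 FPKM in sham and 29.3 in injured cartilage, and in adults at 8.03 and 50.3 FPKM. Both injured libraries were above both sham libraries, and the adult libraries held the lowest and the highest level. The log2 ratio was 0.57 in the young pair, below 2-fold, and 2.51 in the adult pair, where FPKM were 6.27 times as high. The adult value lay between 2.09 and 2.67 under the other pseudocounts and scalings, and its rank among the rises of the 8055 genes averaging at least 5 FPKM was 76. In the sham pair the log2 ratio was −1.18, which was −0.78 and no longer past 2-fold after median-of-ratios scaling, and in the injured pair it was 0.76. The wider adult range thus held a lower sham and a higher injured level than in young mice. Macrophage markers were also higher after injury, with 11 of 12 called in each age. Their median was larger in the young pair (3.17) than in the adult pair (1.98), unlike the Cdkn1a ratio. Endothelial markers had 6 of 8 called higher in each age, with medians of 1.83 and 1.18. For fibroblast markers 3 of 8 were higher in the young pair, and 4 higher and 1 lower in the adult pair. Among 9 chondrocyte markers 1 was lower in the young pair and 3 were higher in the adult pair. The part of these lists in the Cdkn1a values was not tested.

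Cdkn2a (Entrez Gene 12578, chromosome 4, 89274473 to 89294619) encodes p16Ink4a, an inhibitor of CDK4 and CDK6, and from another start p19Arf, which inhibits Mdm2. The table gives 1 value for the gene and does not tell these products apart. Levels were 0.385 FPKM in young sham and 0.703 in young injured cartilage, against 4.82 FPKM in adult sham cartilage and 2.01 after injury. Both adult libraries were above both young libraries, and injured cartilage was above sham in young mice and below it in adults. The log2 ratio was 2.07 in the sham pair, past 2-fold except with a pseudocount of 5 FPKM (0.87), and 0.82 in the injured pair, past 2-fold with a pseudocount of 0.1 FPKM (1.39) and as TPM (1.19). It was 0.30 in the young pair and −0.95 in the adult pair, where the rescaled values given above were past 2-fold. If 1 step in the lowest FPKM is 1 fragment, the young libraries held about 9 and 16 fragments of Cdkn2a and the adult libraries between 44 and 133. Of the 10 osteoblast markers, 7 were likewise called higher in the adult of the sham pair and 7 in that of the injured pair, but in the adult pair 2 were higher and 1 lower. Of the 10 skeletal muscle markers, 6 were called higher in the adult of the sham pair and 7 lower after injury in the adult pair, the directions of Cdkn2a there, but in the injured pair 1 was called and the median was −0.08. The part of both lists in the Cdkn2a values was not tested.

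Ccng1 (Entrez Gene 12450, chromosome 11, 40748552 to 40755309) encodes cyclin G1, a p53 target that feeds back on Mdm2. It was at 35.1 FPKM in sham and 31.1 in injured cartilage of young mice, and at 11.0 and 16.9 FPKM in adults. Both young libraries were above both adult libraries, with log2 ratios of −1.59 in the sham and −0.84 in the injured pair. In the young and the adult pair the values were −0.17 and 0.58, neither of them called. Of the 9 chondrocyte markers, 5 were also called lower and 1 higher in the adult of the sham pair, and 4 and 2 in that of the injured pair. Of the 9 erythroid markers, 7 were lower and 1 higher in the adult of the sham pair and 9 lower in that of the injured pair. Proliferation markers, 14 in number, had 12 lower in the adult of the sham pair and 10 in that of the injured pair, with none higher. The part of these lists in the Ccng1 values was not tested.

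Bax (Entrez Gene 12028, chromosome 7, 45461695 to 45466903), a pore-forming effector of mitochondrial apoptosis, had the highest mean level of the 10 genes. Sham cartilage had 29.9 FPKM in young and 40.1 in adult mice, and injured cartilage 50.3 and 55.9 FPKM. Both injured libraries were above both shams, with log2 ratios of 0.73 in the young and 0.47 in the adult pair, below 2-fold. After median-of-ratios scaling the adult pair had 0.14, and adult sham cartilage lay above young injured cartilage, at 0.84 against 0.71 relative to young sham. Bax was at 0.974 times the level of Trp53 in young sham cartilage and at 1.73 to 1.94 times in the other libraries. Of its 31-base words, 11.1% occur in other genes.

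Bbc3 (Entrez Gene 170770, chromosome 7, 16308398 to 16318334) encodes PUMA, a BH3-only protein that promotes apoptosis by binding the survival proteins of the BCL-2 family. Its level was low, with 1.13 FPKM in sham and 1.61 in injured cartilage of young mice and with 0.715 and 2.09 FPKM in adults, about 40 to 98 fragments on the condition above. The libraries had the order seen for Cdkn1a, from adult sham as the lowest to adult injured as the highest. The log2 ratio was 0.29 in the young and 0.85 in the adult pair, and the adult value was past 2-fold with a pseudocount of 0.1 FPKM (1.42) and as TPM (1.17), but 0.69 with median of ratios and 0.53 with quantiles.

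Phlda3 (Entrez Gene 27280, chromosome 1, 135766085 to 135769134) is a p53 target whose product competes with Akt for membrane lipids. Young cartilage had 8.66 FPKM in the sham and 10.7 in the injured library, and adult cartilage 15.02 and 18.3 FPKM. Both adult libraries were above both young libraries, by log2 ratios of 0.73 in the sham and 0.72 in the injured pair, and the former was 1.14, past 2-fold, after median-of-ratios scaling. The young pair differed by 0.28 and the adult pair by 0.27, which was −0.05 after that scaling.

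Gdf15 (Entrez Gene 23886, chromosome 8, 70629393 to 70632470) encodes a secreted cytokine that both p53 and the integrated stress response can induce. It was close to 0 in all libraries, at 0.0742, 0.176, 0.105 and 0.278 FPKM. On the condition above these values stand for about 3, 7, 5 and 11 fragments. Injured FPKM were 2.38 times the sham value in the young and 2.64 times in the adult pair. These ratios rest on few fragments, and no difference can be read from them.

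The genes whose levels followed Mdm4 and Cdkn1a most closely were sought among the 8055 genes, which Mdm4 joins only through its young sham level, by the Euclidean distance between profiles of log2(FPKM + 1) centred on their mean over the 4 libraries. The nearest to Mdm4 were Itgbl1 (distance 1.04), Id4 (1.10), Nr4a2 (1.10), Mamdc2 (1.12) and Angptl1 (1.13). Itgbl1 was at 38.7, 13.2, 8.32 and 4.40 FPKM. The drop within the young pair was smaller than that of Mdm4 in each of these genes but Angptl1, and in the sham pair in all 5. The nearest to Cdkn1a were Slc39a14 (0.22), Stat3 (0.36), Btg1 (0.44), Pde1b (0.45) and Snx10 (0.47). Slc39a14, a zinc and iron transporter gene, was at 19.4, 27.9, 7.91 and 41.2 FPKM, and Stat3, a transcription factor of cytokine signalling, at 24.6, 35.0, 11.1 and 48.6 FPKM. Over 4 libraries such likeness is a description.

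**Figure D3:**
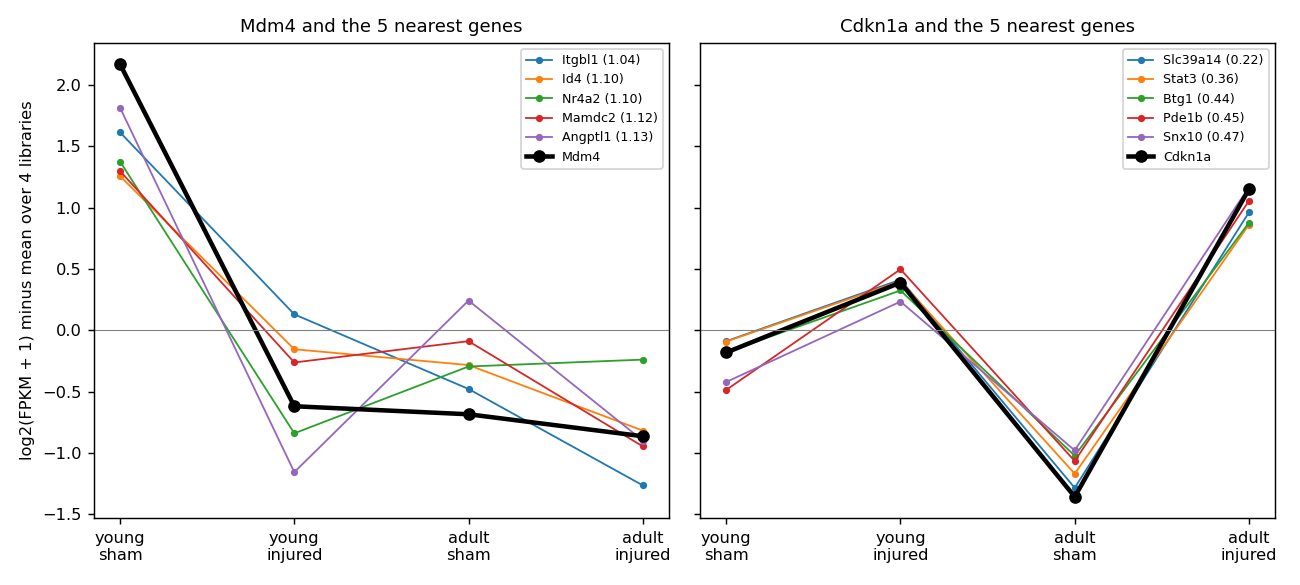
Profiles over the 4 libraries of Mdm4 (left) and Cdkn1a (right, black) and of the 5 genes nearest to each, as log2(FPKM + 1) minus the mean over the libraries, with the distance in brackets. The genes near Cdkn1a run beside it at distances of 0.22 to 0.47, and those near Mdm4 lie farther off, at 1.04 to 1.13.

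Other p53 target genes, 40 in number, were all above 0. In the young pair 4 were called higher and 1 lower, and in the adult pair 2 higher and none lower. The shares of all genes were 4.57% higher and 1.27% lower in the young pair, and 6.90% and 1.46% in the adult pair. For these 40 genes the adult counts moved to 7 higher and none lower as TPM, which also changes the weight of the added 1. With median of ratios they were 1 higher and 1 lower. Of all genes, 11.05% were then higher and 1.71% lower as TPM, and 4.41% higher and 2.90% lower with median of ratios. The medians of the 40 genes were 0.11 in the young pair and 0.31 in the adult pair, the latter −0.03 after quantile normalization. The sham pair had 1 higher and 4 lower, and 4 higher and 1 lower after median-of-ratios scaling, and the injured pair had 3 higher and 2 lower. Beside these stand 2.66% higher and 10.6% lower of all genes in the sham pair, or 5.86% and 5.13% after that scaling. In the injured pair the shares were 1.80% and 3.09%. Gadd45a, which encodes a stress-inducible growth arrest protein, was at 10.6, 31.9, 6.81 and 74.9 FPKM, the same order of libraries as for Cdkn1a. Its log2 ratio was 1.51 in the young and 3.28 in the adult pair. Ephx1, the microsomal epoxide hydrolase, was at 50.5, 14.9, 93.9 and 57.3 FPKM, with −1.69 in the young, −0.70 in the adult and 1.87 in the injured pair. Ckap2, a gene of the mitotic spindle, had log2 ratios of 1.40 in the young, 0.79 in the adult and −1.37 in the sham pair. Rps27l, a ribosomal protein gene with 16.1% of its sequence words in other genes, was at 105, 118, 39.7 and 87.5 FPKM, with 1.12 in the adult pair. Ddit4l, an inhibitor of mTOR signalling, was higher in adults by 2.70 in the sham and 2.18 in the injured pair. Ak1, an adenylate kinase, had 0.98 in the adult pair, just below 2-fold.

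Among regulators of p53, 23 genes were above 0 and none was called in the young or the adult pair, except that 1 (Chek2) was called higher in the adult pair as TPM. The medians were −0.10 in the young and 0.18 in the adult pair, the latter −0.08 after median-of-ratios scaling. Beside 10.6% of all genes, 2 of the 23 regulators were lower in the adult of the sham pair. These were Chek1, a checkpoint kinase, at 0.257 against 2.17 FPKM (−1.33), and Rpl11, a ribosomal protein that restrains Mdm2, at 528 against 1080 FPKM (−1.03). After median-of-ratios scaling 1 was lower, Chek1 (−1.17), and 1 higher, Ppp1r13l (1.29), and Rpl11 was no longer called. Rpl11 shares 18.5% of its sequence words with other genes. Chek2, another checkpoint kinase, had 0.77 in the young and 0.93 in the adult pair. Daxx had 0.72 in the adult pair, Rchy1, a ubiquitin ligase for p53, −0.63 in the young pair, and Ppp1r13l, an inhibitor of p53, 0.48 in the young and 0.97 in the sham pair. Trp53bp2, which encodes a cofactor of p53, differed by 0.56 in the injured pair. Trp73, a p53 relative, was at 0 in every library.

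Other CDK inhibitors and pocket proteins numbered 9, of which 1 was called higher in the young pair and 2 in the adult pair, or 4 as TPM, and none lower. The shares of all genes called higher were 4.57% in the young pair and 6.90% in the adult pair, or 11.05% as TPM. In the sham pair 4 of the 9 were lower in the adult, beside 10.6% of all genes, with a median of −0.80. After median-of-ratios scaling 3 were lower, beside 5.13% of all genes, with a median of −0.47. Cdkn1c, which encodes p57, a CDK inhibitor of growth plate chondrocytes, was at 185, 133, 22.8 and 59.2 FPKM. Its log2 ratio was −0.48 in the young, 1.34 in the adult and −2.97 in the sham pair. Cdkn1b, which encodes p27, was at 13.7, 10.1, 3.68 and 8.20 FPKM, with −1.65 in the sham pair. The part of the chondrocyte markers in these values was not tested. Cdkn3, a phosphatase of CDKs found in dividing cells, had 1.34 in the young and 1.46 in the adult pair. Cdkn2d differed by 0.82 and Rbl2, a pocket protein, by −0.53 in the young pair.

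G1 cyclins, CDKs and E2F factors numbered 12, of which 1 was called higher and 1 lower in the young pair, and 1 higher in the adult pair, or 3 as TPM. Over all genes 4.57% were higher and 1.27% lower in the young pair, and 6.90% higher in the adult pair, or 11.05% as TPM. Ccnd1, which encodes cyclin D1, was at 3.07 FPKM in young sham and 8.66 in young injured cartilage (1.25), and Ccnd2 at 41.2 and 17.6 FPKM (−1.18). E2f3 was at 0.377 FPKM in the sham and 2.38 in the injured library of the adult pair, past 2-fold. In the sham pair 5 were lower in the adult, led by Ccne1 (−1.72), Ccne2 (−1.70) and E2f2 (−1.52), and in the injured pair 3, which were E2f2 (−1.27), Cdk2 (−1.23) and Ccne1 (−1.17). Over all genes 10.6% were lower in the sham pair and 3.09% in the injured pair. Cdk6 had 0.64 in the young and 0.67 in the adult pair.

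Of 14 markers of proliferating cells, 4 were called higher in the young and 9 in the adult pair, beside 4.57% and 6.90% of all genes. The adult count was 4 after median-of-ratios scaling and 11 as TPM, beside 4.41% and 11.05%. In the adult of the sham pair 12 of the 14 were lower, and in that of the injured pair 10, beside 10.6% and 3.09%. Erythroid markers were 7 of 9 lower and 1 higher in the adult of the sham pair, and 9 lower in that of the injured pair. Their part in the proliferation values was not tested. Birc5, a mitotic survivin gene, had log2 ratios of 1.53 in the young and 2.09 in the adult pair. Mki67, a marker of cycling cells, was at 13.3, 19.7, 1.38 and 4.97 FPKM. Proliferation markers and the inhibitor Cdkn1a were both higher in the injured library of the adult pair, and whether the same cells carried them was not tested, as bulk RNA does not separate cells.

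Other BCL-2 family genes numbered 15, of which 5 were called higher in the young pair and 6 in the adult pair, with none lower and medians of 0.53 and 0.67. Over all genes 4.57% were higher and 1.27% lower in the young pair, and 6.90% and 1.46% in the adult pair. After median-of-ratios scaling the adult pair had 3 of the 15 higher and 1 lower, beside 4.41% and 2.90% of all genes. Bcl2a1b, a survival gene of leukocytes, was at 0.474, 16.0, 1.03 and 10.8 FPKM. Bcl2a1a (1.93 in the young pair) and Bcl2a1d (1.63) belong to the same gene cluster, and 79.6% to 89.1% of the sequence words of these 3 genes occur in other genes, so that their single values are uncertain. Of the 12 macrophage markers, 11 were at least 2-fold higher in each of these pairs, and their part in the BCL-2 values was not tested. Mcl1, another survival gene, had 0.53 in the young and 1.23 in the adult pair, and Bcl2l11, which encodes the BH3-only protein BIM, 0.44 and 1.16. Bak1, a pore former like Bax, had 0.69 and 1.12. Bok, a further relative of Bax, was higher in adult than in young sham cartilage, at 12.6 against 1.59 FPKM (2.39), and Bik differed by −0.54 in the injured pair.

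Genes of the integrated stress response, which can induce Gdf15, numbered 12, of which 1 was called higher in the young pair, and 2 higher and 1 lower in the adult pair. The shares of all genes were 4.57% higher in the young pair, and 6.90% higher and 1.46% lower in the adult pair. Atf3, a stress-induced transcription factor, was at 3.50 and 8.68 FPKM in the young pair (1.11). In the adult pair Ddit4 (1.21) and Asns (1.17) were higher, and Ddit3, which encodes CHOP, was lower, at 58.2 FPKM in sham and 28.0 in injured cartilage (−1.03). After median-of-ratios scaling none was called higher in the adult pair and 1 lower. Vldlr differed by 1.33 in the injured pair, and Herpud1 by −0.56 in the young pair. The medians were −0.13 in the young and 0.08 in the adult pair, the latter −0.25 after median-of-ratios scaling.

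**Figure D4:**
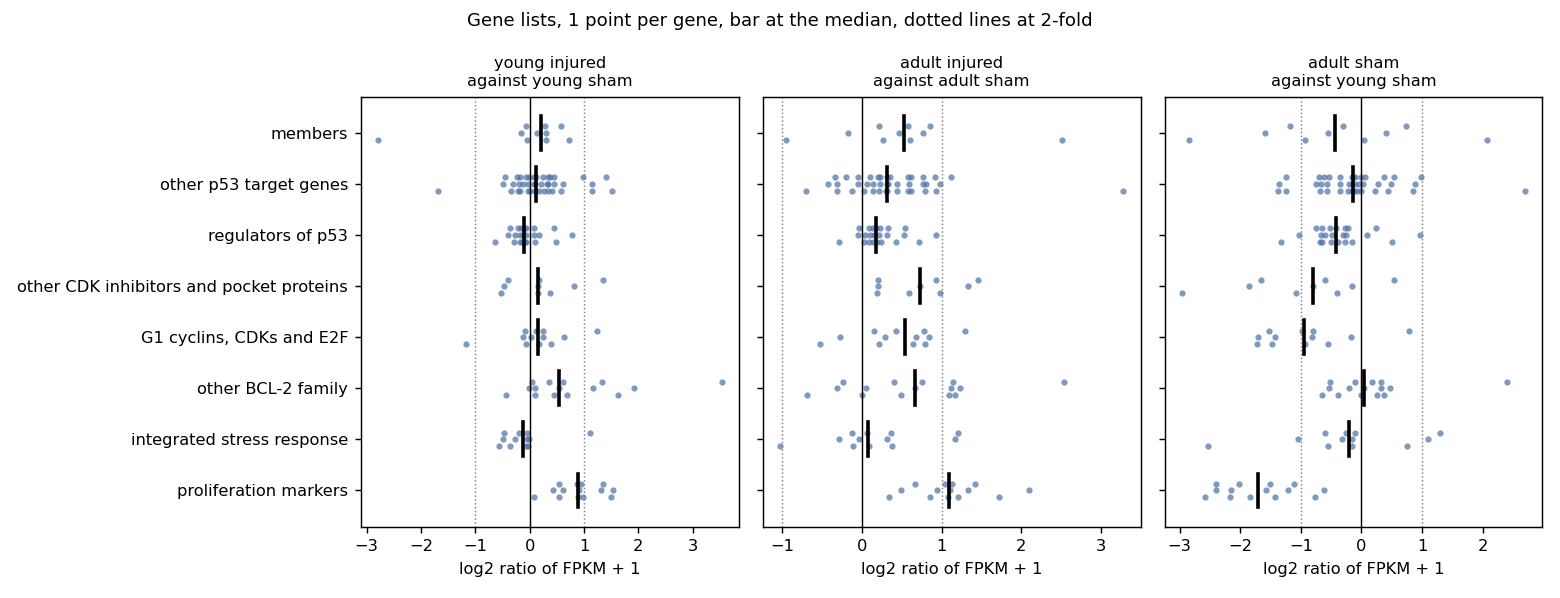
Log2 ratio of FPKM + 1 (horizontal axis) of the genes of 8 lists, 1 point per gene with a bar at the list median, for the young, the adult and the sham pair, with dotted lines at 2-fold. Regulators of p53 lay between the lines in both injury pairs, and proliferation markers had the highest medians there, 0.90 and 1.09.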

How the data were processed

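RNA of pooled cartilage was poly-A selected and sequenced in paired ends from strand-specific libraries. The authors deposited FPKM per gene on mm10. The submitters' processing notes list HISAT2 2.1.0, StringTie 1.3.4d, STAR and SAMtools without their roles, and whether counting used strand is not given in the sources used here. Columns were matched to libraries by name.

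Log2 ratios of FPKM + 1 were calculated for 4 comparisons of 1 library each, without further scaling or a test. Alternatives were pseudocounts of 0.1 and 5 FPKM, a filter of 1 FPKM, 3 rescalings (TPM, quantile normalization and median-of-ratios scaling) and calls at 1.5-fold or 3-fold. The 1 was added on every scale. TPM values were larger than the FPKM, so this alternative changed both the scaling and the weight of the added 1. The members and lists were chosen with earlier results of these data known. All members were named, and from each list of other pathway genes up to 3 genes per comparison with the largest log2 ratio, averaging at least 1 FPKM. Cnmd and Ahsp had no row under these symbols, nor had Cop1, which was present under its earlier symbol Rfwd2.

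Depth was read from regular steps in FPKM times transcript length, over low values of 17308 genes with 1 matched transcript. If 1 step is 1 fragment, the libraries held 25700000 to 30800000 fragments. Shared sequence was measured in 31-base words of GENCODE M21 transcripts. The functions were tested on simulated data. Python 3.11.15, numpy 2.4.6, pandas 2.3.3 and matplotlib 3.10.9 were used.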

Additional observations from a re-analysis of the deposited data

Results flagged for a closer look

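For 4 genes the young and the adult pair differed in direction. The adult minus the young log2 ratio was 0.68 for Trp53, 0.82 for Mdm2, 0.74 for Ccng1 and −1.25 for Cdkn2a. Trp53, Mdm2 and Ccng1 were slightly lower after injury in young mice and higher in adults, and Cdkn2a the reverse. The difference was not tested, as each value rests on 1 library per group, and in the young pair the 4 ratios lay between −0.17 and 0.30. After median-of-ratios scaling the differences were 0.37 for Trp53, 0.52 for Mdm2, 0.44 for Ccng1 and −1.51 for Cdkn2a, and as TPM 0.90, 1.05, 0.97 and −1.38. No ratio of these genes in the young or the adult pair changed sign under the pseudocounts and scalings tried.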

How the results depend on the processing

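With 1 library per group no replicate could be left out, and the spread between mice was not measured. Of 236 log2 ratios of the 10 genes recomputed under another pseudocount, scaling or filter, 3 changed sign and 14 crossed 2-fold. The signs were those of Mdm2 in the injured pair (0.07 on the TPM scale, 0.00 with median-of-ratios scaling), and of Phlda3 in the adult pair after median-of-ratios scaling (−0.05). The filter of 1 FPKM left out Gdf15. The number of the 10 genes called in the adult pair was 1, and became 3 with a pseudocount of 0.1 FPKM or on the TPM scale, 2 with median-of-ratios scaling and with quantile normalization, and 5 at 1.5-fold. In the injured pair it was 0, and became 1 with a pseudocount of 0.1 FPKM or on the TPM scale and 4 at 1.5-fold. In the sham pair it went from 4 to 2 with a pseudocount of 5 FPKM and to 6 at 1.5-fold, and in the young pair from 1 to 2 at 1.5-fold. Of all genes, 5.83%, 8.37%, 13.3% and 4.89% were called in the young, adult, sham and injured pair. These shares became 14.2%, 19.5%, 26.8% and 12.9% with a pseudocount of 0.1 FPKM, 2.32%, 3.09%, 4.92% and 1.94% with 5 FPKM, 14.3%, 21.9%, 31.6% and 15.3% at 1.5-fold, and 2.29%, 2.89%, 3.78% and 1.56% at 3-fold, and in the same order 7.72%, 12.8%, 18.2% and 6.84% on the TPM scale, 5.60%, 7.31%, 11.0% and 4.72% with median-of-ratios scaling, and 5.57%, 6.68%, 10.3% and 4.79% with quantile normalization.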
